A study of Mus musculus with 45 samples.

Results

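Replication licensing is the loading of the inactive MCM helicase onto DNA before S phase. The origin recognition complex, CDC6 and CDT1 place a ring of the 6 subunits MCM2 to MCM7 at each origin in G1, MCM10 helps to turn the loaded ring into an active helicase, and geminin (*Gmnn*) binds CDT1 so that no origin is licensed again in the same cycle. Quiescent cells lose much of this machinery, and its genes are classical targets of E2F factors as cells return to the cycle. Adult kidney tubule cells divide rarely, and increased proliferation is a known feature of tubules that lack polycystin-1.

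The 10 genes *Mcm2* to *Mcm7*, *Mcm10*, *Cdc6*, *Cdt1* and *Gmnn* were taken by symbol from the 55401 genes of the count tables. All 10 were present in the counts and in the TPM (length-corrected transcript abundance scaled to a fixed total) tables of both sexes, and all 10 were tested in each sex, where a gene needed 6 counts or more in 20% or more of its mice. The rule used names only, and it was set with earlier results of these data known.

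The samples were translating ribosome affinity purification (TRAP) RNASeq libraries, 1 from each of 45 mice whose kidneys were taken at 7 weeks (postnatal day 49). In TRAP, ribosomes tagged through an EGFP fusion of L10a are pulled down together with the mRNA they hold. All mice carried the RosaEGFP-Rpl10a, Pax8rtTA and TetOCre alleles, and doxycycline was given from postnatal day 28 to 42, so tagging of the ribosomes and deletion of the floxed genes both depended on Cre driven by the tubule-selective Pax8rtTA. The noncystic group (labelled WT) was Pkd1fl/+, with 8 males and 7 females, and thus carried 1 floxed allele as a heterozygous control. The Pkd1KO group (SKO) was Pkd1fl/fl, with 7 males and 8 females. The Pkd1KO+ciliaKO group (DKO) was Pkd1fl/fl; Kif3afl/fl, with 9 males and 6 females, and also lacked KIF3A, a motor subunit needed to build cilia. The kidneys were taken before cysts had formed, so Pkd1KO against noncystic asks what loss of polycystin-1 changes in tubules bound to become cystic, and Pkd1KO against Pkd1KO+ciliaKO asks which of these changes need cilia.

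The gene counts of a mouse summed to between 80874556 and 132958186 fragments. The member with the lowest counts, *Cdc6*, still had at least 55 fragments in every mouse. The part of counting error in the spread between mice was not measured. *Kif3a* was 5.72 ± 0.804 CPM (counts scaled to library size by TMM) in Pkd1KO+ciliaKO males (SD, n = 9) against 21.8 ± 3.68 in noncystic males (SD, n = 8). In females the library labelled noncystic replicate 5 had 6.69 CPM of *Kif3a* and the other 6 had 23.2 to 25.3. The library labelled Pkd1KO+ciliaKO female replicate 6 had 20.7 CPM and the other 5 had 6.56 to 8.47. Both libraries thus went against their labels, were kept under them, and the calls of licensing genes in females and between the sexes are also given without them. Female levels, shares and ratios include them. *Pkd1* was counted over the whole gene and not over its floxed exons, so its level does not check the labels. On the first principal component of log2(TPM + 1), 20 males scored 14.4 to 40.3 and all 21 females -38.4 to -12.9. The other 4 males stood apart, namely noncystic replicate 3 (-9.76), Pkd1KO replicate 4 (-1.13) and Pkd1KO+ciliaKO replicates 6 (-23.7) and 8 (-30.2). Proximal tubule markers (*Slc34a1*, *Lrp2*, *Slc5a2*, *Slc5a12* and *Aqp1*) summed to 3980 to 9530 CPM in each mouse, and T cell and B cell markers to at most 9.33 and 1.52 CPM.

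On GRCm38 the loaders are *Cdc6* (ENSMUSG00000017499.15, chr11:98907801-98923940, plus strand) and *Cdt1* (ENSMUSG00000006585.3, chr8:122568015-122573554, plus strand), and the inhibitor is *Gmnn* (ENSMUSG00000006715.11, chr13:24751845-24761923, minus strand). The subunits of the ring are *Mcm2* (ENSMUSG00000002870.8, chr6:88883474-88898780, minus strand), *Mcm3* (ENSMUSG00000041859.10, chr1:20802968-20820312, minus strand) and *Mcm4* (ENSMUSG00000022673.5, chr16:15623897-15637400, minus strand). The other 3 subunits are *Mcm5* (ENSMUSG00000005410.6, chr8:75109569-75128439, plus strand), *Mcm6* (ENSMUSG00000026355.11, chr1:128331590-128359664, minus strand) and *Mcm7* (ENSMUSG00000029730.16, chr5:138164583-138172422, minus strand), and the activation factor is *Mcm10* (ENSMUSG00000026669.14, chr2:4989714-5012791, minus strand). *Mcm4* starts 466 bases from *Prkdc* on the opposite strand, with no shared exon.

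Promoter windows from RefSeq (GRCm38.p6, 250 bases before to 50 after the start) were held for 8 of the 10 genes, that is for all but *Mcm4* and *Gmnn*. The octamers TTTCCCGC, TTTCGCGC, TTTGCCGC and TTTGGCGC, which are core E2F sites, were searched on both strands, where overlapping matches were counted separately. Of the 8 genes, *Mcm3*, *Mcm5*, *Mcm6*, *Mcm7*, *Cdc6* and *Cdt1* held a match, and *Mcm2* and *Mcm10* held none. Of all 27025 genes with a window, 2.6% held one. Among the partners and neighbours of these genes in the pathway, 6 of 17 genes of origin recognition and licensing and 7 of 24 replication fork genes held a match, as did 2 of 11 genes in the turnover of CDT1 and geminin and 1 of 15 mitosis genes. The 3 stretches shown are upstream of the start. They are printed because *Mcm5* and *Mcm6* were the subunits that most often passed the tests between genotypes. *Mcm10* is printed as the gene with the most different pattern. Capitals mark the octamers, which overlap by 4 bases in *Mcm5* and in the first pair of *Mcm6*.
Mcm5 (chr8:75109329-75109448, plus strand): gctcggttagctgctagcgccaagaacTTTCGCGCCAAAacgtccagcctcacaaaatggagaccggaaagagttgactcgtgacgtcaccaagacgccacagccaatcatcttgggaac
Mcm6 (chr1:128359726-128359845, minus strand): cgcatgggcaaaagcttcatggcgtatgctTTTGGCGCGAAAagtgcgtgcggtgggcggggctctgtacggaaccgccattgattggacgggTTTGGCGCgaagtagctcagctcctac
Mcm10 (chr2:5012792-5012911, minus strand): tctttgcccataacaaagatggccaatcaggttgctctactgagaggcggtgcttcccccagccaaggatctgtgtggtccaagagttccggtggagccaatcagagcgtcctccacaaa
The first base of each stretch lies at position -180, -140 and -120 from the start. A match describes the letters of the window and is not evidence of binding, and the absence of these letters says nothing about E2F at the gene.

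The 10 genes were expressed at very different levels. On the TPM scale, noncystic males had 28.9 ± 3.79 of *Gmnn*, 23.5 ± 2.86 of *Mcm6* and 16.0 ± 1.69 of *Mcm7* (SD, n = 8 mice each). They had 14.1 ± 3.91 of *Mcm4*, 10.1 ± 2.55 of *Mcm2* and 7.06 ± 1.9 of *Mcm5*. The remaining genes were *Cdt1* at 6.2 ± 0.826, *Mcm3* at 6.04 ± 2.4, *Mcm10* at 2.27 ± 0.4 and *Cdc6* at 0.578 ± 0.234. In this order only 3 neighbouring pairs were separated by more than their SDs, namely *Mcm6* and *Mcm7*, *Mcm3* and *Mcm10*, and *Mcm10* and *Cdc6*. By mean alone, the inhibitor geminin stood at the top and the loaders *Cdc6* and *Cdt1* among the lower levels in noncystic males. *Gmnn* and *Mcm6* were not separated there. In the Pkd1KO groups *Mcm6* led, at 35.3 ± 8.29 TPM in males (SD, n = 7) and 39.0 ± 5.72 in females (SD, n = 8), although its range of mean ± SD overlapped that of *Gmnn* in both sexes.

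The subunits of the hexamer act in equal numbers in the ring, but their transcripts were not equal. *Mcm6* made up 31.0 ± 2.88% of the summed TPM of *Mcm2* to *Mcm7* in noncystic males (SD, n = 8), and *Mcm3* made up 7.62 ± 1.62%. The share of *Mcm3* was 10.5 ± 2.4% in Pkd1KO males (SD, n = 7) and 9.1 ± 1.53% in Pkd1KO+ciliaKO males (SD, n = 9). In females *Mcm6* had 31.4 ± 2.73% in noncystic mice (SD, n = 7), 33.8 ± 4.97% in Pkd1KO (SD, n = 8) and 26.0 ± 2.66% in Pkd1KO+ciliaKO (SD, n = 6). These shares are descriptions and were not tested.

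**Figure D1:**
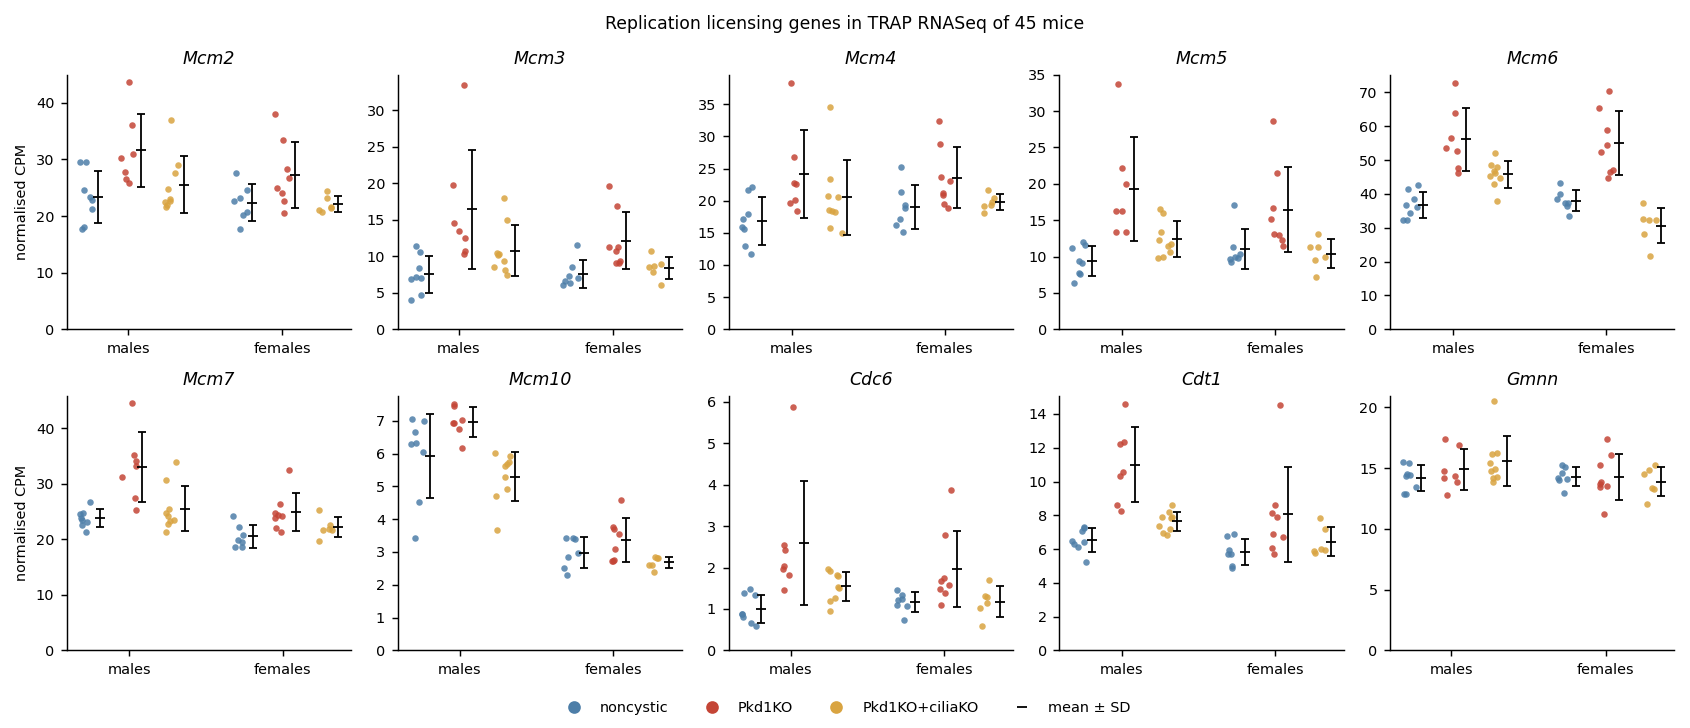
Normalised CPM of the 10 genes in each of the 45 mice, with each gene on its own linear axis from 0, males left and females right, and the mean ± SD of each group in black. Pkd1KO male replicate 4 is the highest point of 8 panels, within each genotype *Mcm10* is higher in males than in females except where noncystic male replicate 3 meets the highest noncystic females at 3.43, and *Gmnn* stays between 11.2 and 20.5 CPM in all mice.

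In males, 6 of the 10 licensing genes were higher in Pkd1KO than in noncystic mice, and none was lower. They were the helicase subunits *Mcm3*, *Mcm5*, *Mcm6* and *Mcm7* and the loaders *Cdc6* and *Cdt1*. Of all 15991 genes tested, 4.05% were called higher in this comparison. The median log2 fold change was 0.56 over the 10 genes and -0.01 over all genes. In these bulk libraries, more or fewer cells of a type and more or less RNA per cell cannot be told apart.
*Cdc6*, the ATPase that recruits the MCM ring to the origin, ranged from 0.581 to 1.47 CPM in the 8 noncystic males, with a median of 0.883. In the 7 Pkd1KO males it ranged from 1.45 to 5.89 CPM with a median of 2.04. All but 1 of the Pkd1KO males were above every noncystic male, and that 1 was above all but the highest. The log2 fold change of 1.37 (standard error 0.296) had an edgeR adjusted p of 0.0101 (quasi-likelihood test, Benjamini-Hochberg over all genes tested), and this test was used for all comparisons that follow.
*Cdt1*, the partner that CDC6 needs to load the ring, had 5.21, 6.47 and 7.29 CPM as lowest, median and highest value in noncystic males. The Pkd1KO males had 8.24, 10.6 and 14.6 CPM. The groups did not overlap, and the log2 fold change was 0.75 (standard error 0.121, edgeR adjusted p = 0.00143).
Among the ring subunits, *Mcm5* ranged from 6.42 to 12.0 CPM (median 9.24) in noncystic and from 13.4 to 33.7 CPM (median 16.3) in Pkd1KO males. *Mcm6* ranged from 32.2 to 42.8 CPM (median 36.5) and from 46.2 to 72.7 CPM (median 53.5). Neither gene's ranges overlapped between the groups. *Mcm5* had a log2 fold change of 1.04 (standard error 0.195, edgeR adjusted p = 0.00386) and *Mcm6* of 0.61 (standard error 0.097, edgeR adjusted p = 0.00128).
*Mcm3* was at 7.52 ± 2.58 CPM in noncystic males (SD, n = 8) and 16.4 ± 8.15 in Pkd1KO males (SD, n = 7), a log2 fold change of 1.13 (standard error 0.268, edgeR adjusted p = 0.0183). *Mcm7* was at 23.8 ± 1.6 and 33.0 ± 6.23 CPM, a log2 fold change of 0.47 (standard error 0.0988, edgeR adjusted p = 0.00802). The exons of *Mcm7* share 557 bases with *Cops6*, *Ap4m1*, *Mir25* and *Mir93*, and whether the counting used strand is not given in the sources used here, so its values are uncertain. With limma on log2(TPM + 1), *Mcm5*, *Mcm6* and *Cdt1* passed, but *Mcm3*, *Mcm7* and *Cdc6* did not, at limma adjusted p-values of 0.0698, 0.106 and 0.0697.

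The other 4 genes did not pass the threshold. *Mcm2* and *Mcm4* had log2 fold changes of 0.44 (95% confidence interval 0.15 to 0.72, edgeR adjusted p = 0.0649) and 0.51 (0.16 to 0.86, edgeR adjusted p = 0.0769). With DESeq2, the test the study used, both passed (DESeq2 adjusted p = 0.0253 and 0.0313). DESeq2 called 10.7% of all genes here and edgeR 6.3%. *Mcm10* had 0.23 (-0.05 to 0.52, edgeR adjusted p = 0.324). *Gmnn* had 12.8, 14.4 and 15.5 CPM as lowest, median and highest value in noncystic and 12.7, 14.3 and 17.3 CPM in Pkd1KO males. Its log2 fold change was 0.07 with an interval of -0.09 to 0.23 (edgeR adjusted p = 0.64), and the upper bound is a 1.17-fold higher level of geminin transcripts. The ratio of *Cdt1* to *Gmnn* TPM was 0.217 ± 0.0327 in noncystic males (SD, n = 8), 0.345 ± 0.0632 in Pkd1KO males (SD, n = 7) and 0.231 ± 0.0282 in Pkd1KO+ciliaKO males (SD, n = 9). Each Pkd1KO male, at 0.271 to 0.448, lay above the highest of the other male mice, at 0.269. In females the ratio was 0.19 ± 0.0204 in noncystic (SD, n = 7), 0.261 ± 0.0628 in Pkd1KO (SD, n = 8) and 0.216 ± 0.0185 in Pkd1KO+ciliaKO mice (SD, n = 6), with overlapping ranges. The ratio was not tested. 

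Pkd1KO male replicate 4 had the highest level of 8 of the 10 genes among the 45 mice, and it also stood apart in the markers of other cell types. Its 5 macrophage markers summed to 309 CPM, against 93.4 to 127 in the other 6 Pkd1KO males and 36.7 to 127 in the other 44 mice. Its 4 T cell markers summed to 9.33 CPM against 1.71 to 2.78 in the other Pkd1KO males, and its 4 endothelial markers to 291 against 64.6 to 120. Its proximal tubule markers, at 3980 CPM, were the lowest of all mice. Over the group, 2 of the 5 macrophage markers were higher in Pkd1KO than in noncystic males, with sums of 93.4 to 309 against 68.1 to 95.2 CPM, and 2 of the 4 tubule injury markers, with 23.3 to 159 against 13.7 to 68.5 CPM. None of these markers was at 0 in every mouse. What these markers contribute to the licensing genes was not tested, and the same 6 genes passed without this mouse, as they did when any other mouse of the comparison was left out. Without it, *Cdc6* was 2.04 ± 0.403 and *Mcm3* 13.6 ± 3.47 CPM in Pkd1KO males (SD, n = 6), against noncystic means of 1.0 and 7.52. *Mcm2* gained the call without noncystic male replicate 1, noncystic male replicate 3 or Pkd1KO male replicate 1, with edgeR adjusted p-values of 0.0316 to 0.0486. *Mcm4* gained it without noncystic male replicate 3 (edgeR adjusted p = 0.0469).

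**Figure D2:**
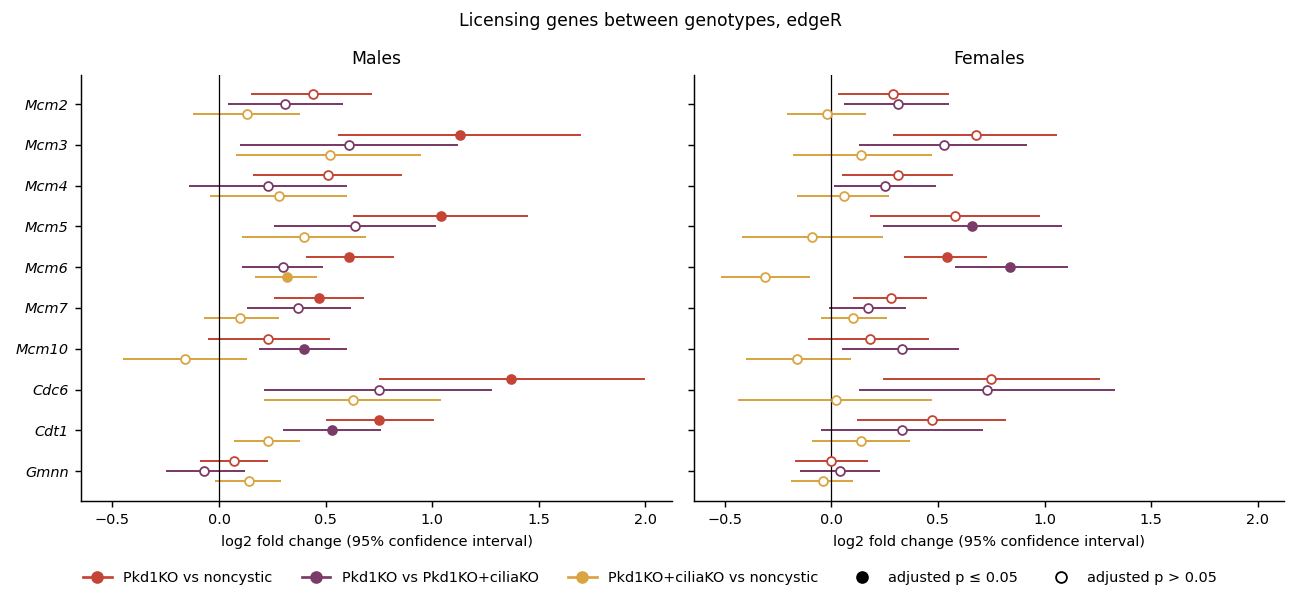
Log2 fold changes of the 10 genes with 95% confidence intervals from edgeR, males left and females right, for Pkd1KO against noncystic, Pkd1KO against Pkd1KO+ciliaKO and Pkd1KO+ciliaKO against noncystic mice, with filled points at an adjusted p of at most 0.05. In males 6 genes pass in the first comparison, and in females *Mcm6* passes in the first and second and has the lowest value of the third, at -0.31.

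Against Pkd1KO+ciliaKO males, 2 of the 10 genes were higher in Pkd1KO, *Cdt1* and *Mcm10*, where 1.99% of all genes were called higher. The Pkd1KO libraries are those of the comparison above, so the results are not independent. *Cdt1* ranged from 6.86 to 8.59 CPM (median 7.85) in the 9 Pkd1KO+ciliaKO males, a log2 fold change of 0.53 (standard error 0.109, edgeR adjusted p = 0.0108), and 6 of the 7 Pkd1KO males lay above all of them. *Mcm10* ranged from 6.18 to 7.5 CPM (median 6.92) in Pkd1KO and from 3.67 to 6.01 CPM (median 5.63) in Pkd1KO+ciliaKO males, with no overlap (log2 fold change 0.40, standard error 0.0979, edgeR adjusted p = 0.0311). The *Mcm10* call was lost without Pkd1KO male replicate 1, 5 or 7 or Pkd1KO+ciliaKO male replicate 1 or 8, at edgeR adjusted p-values of 0.0516 to 0.0618. Neither gene passed with limma on log2(TPM + 1), where the adjusted p was 0.174 for *Cdt1* and 0.147 for *Mcm10*. *Mcm5* had a log2 fold change of 0.64 (edgeR adjusted p = 0.056), *Mcm6* of 0.30 (0.075) and *Mcm7* of 0.37 (0.0839). *Mcm5* gained a call without Pkd1KO male replicate 1 or 5 or Pkd1KO+ciliaKO male replicate 9 (edgeR adjusted p = 0.0402 to 0.0462). *Mcm6* gained one without Pkd1KO male replicate 1 (0.0467) and *Mcm7* without Pkd1KO+ciliaKO male replicate 9 (0.0328). The median over the 10 genes was 0.38, and *Gmnn*, at -0.07, was the only negative value. Of the markers, 1 of 5 for macrophages (*Csf1r*, log2 fold change 0.77) and 1 of 4 for T cells (*Cd8a*, 1.04) were also higher in Pkd1KO. So was 1 of 5 for proximal tubule (*Slc5a2*, 4.2). The medians of these lists were 1.23, 1.34 and 0.13. Lower were 1 of 3 distal convoluted tubule markers (*Pvalb*, -2.37) and 1 of 3 thick ascending limb markers (*Slc12a1*, -0.73). The medians of these lists were -0.17 and -0.58. The part of these markers was not tested.

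Between Pkd1KO+ciliaKO and noncystic males, *Mcm6* was the only licensing gene of the 10 that was higher, where 5.63% of all genes were called higher. Its Pkd1KO+ciliaKO values of 37.9, 46.2 and 52.1 CPM (lowest, median and highest) gave a log2 fold change of 0.32 (standard error 0.0706, edgeR adjusted p = 0.00857), and all but 1 of the 9 mice lay above the highest noncystic male, the lowest of them by less than the rounding. *Cdc6* came next, at a log2 fold change of 0.63 (standard error 0.199, edgeR adjusted p = 0.0559) and 9 of 9 mice above the noncystic median. It passed without noncystic male replicate 1, 3 or 6 or Pkd1KO+ciliaKO male replicate 5 (edgeR adjusted p = 0.0215 to 0.05), and *Mcm5* passed without noncystic male replicate 3 (log2 fold change 0.45, edgeR adjusted p = 0.0409). *Mcm10* had a log2 fold change of -0.16 (95% confidence interval -0.45 to 0.13). Markers of other cell types moved in the same comparison. Of the 5 proximal tubule markers 3 were lower (*Slc5a2* by a log2 fold change of -4.48, *Slc5a12* -0.62 and *Lrp2* -0.49), with sums of 4980 to 7640 against 6140 to 9530 CPM. The injury marker *Lcn2* (1.70), the mast cell marker *Ms4a2* (2.21), *Cd79b* (0.95), *Pvalb* (1.81) and the macrophage marker *Lyz2* (0.84) were higher, and *Csf1r* (-0.42) was lower. Their part in the *Mcm6* result was not tested. In males the mean levels of *Cdt1*, *Mcm5* and *Cdc6* in Pkd1KO+ciliaKO mice were 7.63, 12.4 and 1.55 CPM. They lay between those of noncystic mice (6.53, 9.39 and 1.0) and Pkd1KO mice (11.0, 19.3 and 2.59). Of these genes only *Cdt1* was called against Pkd1KO, and none against noncystic males. The means of *Mcm2*, *Mcm3*, *Mcm4*, *Mcm6* and *Mcm7* also lay between. *Mcm10*, at 5.29 CPM, lay below both groups (5.92 and 6.96), and *Gmnn*, at 15.6, above both (14.2 and 14.9).

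In females, *Mcm6* alone of the 10 genes passed between Pkd1KO and noncystic mice, where 2.02% of all genes were called higher. It had 33.4, 37.3 and 43.2 CPM (lowest, median and highest) in the 7 noncystic and 44.6, 53.6 and 70.6 CPM in the 8 Pkd1KO females. Every Pkd1KO female lay above every noncystic female, at a log2 fold change of 0.54 (standard error 0.093, edgeR adjusted p = 0.00309) with all mice and of 0.53 (0.0059) without the 2 libraries that went against their labels. *Mcm3* and *Cdc6* had log2 fold changes of 0.68 and 0.75 (edgeR adjusted p = 0.0521 and 0.103), and *Mcm5* and *Cdt1* of 0.58 and 0.47 (0.112 and 0.147). Without the same 2 libraries these values were 0.67, 0.76, 0.55 and 0.48, with edgeR adjusted p-values of 0.0775 to 0.177. *Mcm3* gained the call without noncystic female replicate 4 or Pkd1KO female replicate 2, 4 or 5 (edgeR adjusted p = 0.0205 to 0.0471). *Mcm5* gained it without noncystic female replicate 4 (0.0441) and *Mcm7* without noncystic female replicate 3 (0.0467). *Gmnn* was at 14.3 CPM on average in both groups, and the 95% confidence interval of its log2 fold change ran from -0.17 to 0.17. The median over the 10 genes was 0.39, against 0.56 in males. Of 3 mast cell markers tested, *Ms4a2* alone was also higher in Pkd1KO females (log2 fold change 2.77), with a list median of 0.15. Of 3 thick ascending limb markers, *Cldn16* alone was lower (-0.53), with a list median of -0.26. The part of these markers was not tested.
Pkd1KO female replicate 6 had the highest female value of 9 of the 10 genes, all but *Mcm6*, for example 14.6 CPM of *Cdt1* against 5.7 to 8.63 in the other 7 Pkd1KO females. *Mcm6* passed in all fits that left out 1 of the 15 females.

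Against Pkd1KO+ciliaKO females, 2 of the 10 genes were higher in Pkd1KO, where 7.05% of all genes were called higher. *Mcm6* had 21.7, 32.2 and 37.3 CPM (lowest, median and highest) in the 6 Pkd1KO+ciliaKO females, all below the lowest Pkd1KO female at 44.6. Its log2 fold change was 0.84 (standard error 0.125, edgeR adjusted p = 0.000905), and 0.86 (edgeR adjusted p = 0.00151) without the library labelled Pkd1KO+ciliaKO replicate 6. *Mcm5* had a log2 fold change of 0.66 (standard error 0.199, edgeR adjusted p = 0.042). This call was lost without Pkd1KO replicate 6, 7 or 8 or Pkd1KO+ciliaKO replicate 1, 2, 3, 5 or 6, with edgeR adjusted p-values of 0.0577 to 0.0781, so it rests on the full set of mice. The fit without Pkd1KO+ciliaKO replicate 6, the library against its label, gave 0.64 (0.0736). *Mcm2* gained a call without Pkd1KO replicate 4 (log2 fold change 0.36, edgeR adjusted p = 0.0455). Of the markers, 1 of 5 for macrophages (*Csf1r*, 0.78) and 1 of 5 for proximal tubule (*Slc5a2*, 2.30) were also higher. So were 1 of 3 mast cell markers tested (*Ms4a2*, 1.80) and 1 of 4 injury markers (*Krt20*, 1.21). The medians of these lists were 0.05, 0.22, -0.14 and 0.22. Lower were *Pvalb* (-1.68), the thick ascending limb marker *Slc12a1* (-0.53) and the intercalated cell marker *Atp6v1g3* (-0.36). Each was the only 1 called of 3 in its list, with list medians of -0.09, -0.31 and -0.36. The part of these markers was not tested.
Between Pkd1KO+ciliaKO and noncystic females, edgeR called 0 of the 10 genes, and DESeq2 also called 0. Of all genes, 2.54% were called in either direction. At an unadjusted p under 0.05 the count was 1, *Mcm6*, at a log2 fold change of -0.31 (standard error 0.1, edgeR adjusted p = 0.0964). All 6 Pkd1KO+ciliaKO females lay below the noncystic median, the highest of them by less than the rounding at 37.3 CPM. Without the 2 libraries against their labels the value was -0.33 (edgeR adjusted p = 0.107).

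*Mcm10*, which links the active helicase to DNA polymerase alpha, differed between the sexes in every genotype. Noncystic males had 3.43, 6.31 and 7.04 CPM (lowest, median and highest) and noncystic females 2.29, 2.97 and 3.43. Pkd1KO males had 6.18, 6.92 and 7.5 and Pkd1KO females 2.72, 3.32 and 4.59. Pkd1KO+ciliaKO males had 3.67, 5.63 and 6.01 and Pkd1KO+ciliaKO females 2.38, 2.71 and 2.84. The sexes did not overlap in the Pkd1KO and Pkd1KO+ciliaKO groups, and in the noncystic group they met only at male replicate 3. The log2 difference of males from females was 0.99 in noncystic (standard error 0.126, edgeR adjusted p = 6.21e-08), 1.05 in Pkd1KO (0.124, 9.53e-09) and 0.98 in Pkd1KO+ciliaKO mice (0.13, 3.72e-07).
The lowest males in the noncystic and Pkd1KO+ciliaKO groups, noncystic replicate 3 and Pkd1KO+ciliaKO replicate 6, are among the 4 males that stood apart on the first component. Without these 4 males and the 2 females that went against their labels, the differences were 1.03, 1.03 and 1.08 in the same order, and the males had 4.51 to 7.5 CPM over the 3 genotypes.

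Among the other licensing genes sex differences were fewer. In noncystic mice *Mcm10* was the only 1 of 10 called higher in males, against 14.1% of all genes. In Pkd1KO mice 3 were called higher in males, against 16.3% of all genes, namely *Mcm10*, *Mcm7* (log2 difference 0.41, edgeR adjusted p = 0.000931) and *Cdt1* (0.45, edgeR adjusted p = 0.00852). In Pkd1KO+ciliaKO mice 2 were called, against 11.2% of all genes, *Mcm10* and *Mcm6* (0.58, standard error 0.101, edgeR adjusted p = 5.22e-05). Without the 2 females and the 4 males that stood apart, *Mcm7* and *Cdt1* had 0.32 and 0.37 in Pkd1KO mice (edgeR adjusted p = 0.00607 and 0.0393), and *Mcm6* had 0.63 in Pkd1KO+ciliaKO mice (edgeR adjusted p = 1.97e-05). In all 3 genotypes the share is not far from the background. No licensing gene was called higher in females. All 5 macrophage markers were also higher in Pkd1KO males than in Pkd1KO females, with sums of 93.4 to 309 against 61.8 to 115 CPM. So were 2 of 4 T cell markers. All 3 thick ascending limb and all 3 intercalated cell markers were lower, where 30.6% of all genes were called in either direction. Of the 17 mitosis genes described below, all 17 were higher in Pkd1KO males (median log2 difference 1.15). In Pkd1KO+ciliaKO mice 11 of the 17 were higher in males, and in noncystic mice 1. Of 28 replication fork genes, 9 were higher in Pkd1KO males. The part of these genes in the differences of *Mcm7* and *Cdt1* was not tested.

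**Figure D3:**
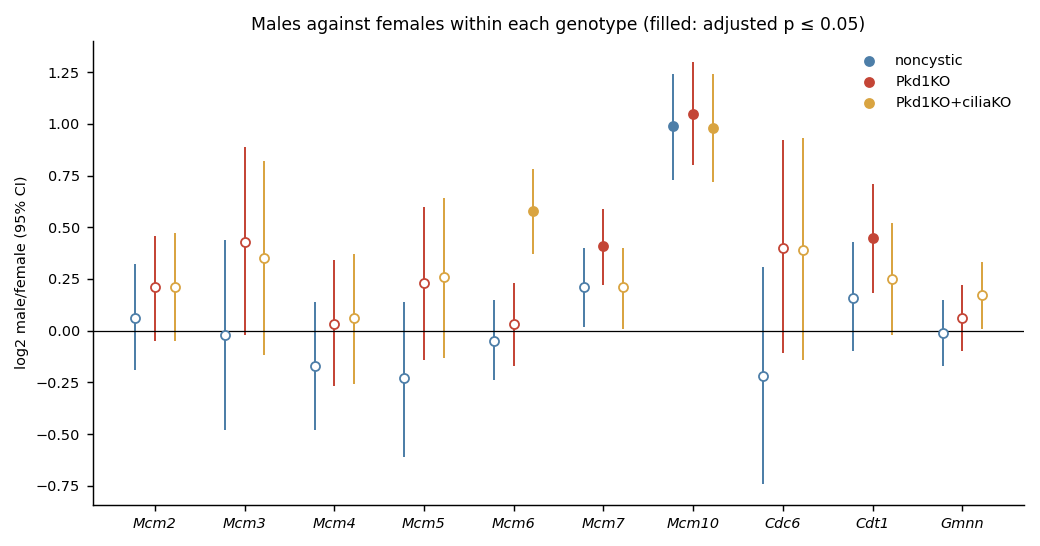
Log2 difference of males from females for each gene within noncystic, Pkd1KO and Pkd1KO+ciliaKO mice, with 95% confidence intervals from the edgeR fit of all 45 mice and filled points at an adjusted p of at most 0.05. *Mcm10* lies between 0.98 and 1.05 in all 3 genotypes, and *Mcm6* is called only in Pkd1KO+ciliaKO mice, at 0.58.

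The test of sex and genotype together asked whether the genotype effects differed between males and females. It called 0 of the 10 genes for Pkd1KO against noncystic, where 0.0126% of all genes were called in either direction, with 0 of 10 at an unadjusted p under 0.05. It called 0 for Pkd1KO against Pkd1KO+ciliaKO (0.221% of all genes) and 0 for Pkd1KO+ciliaKO against noncystic (0.0316% of all genes), with 1 gene at an unadjusted p under 0.05 in each. That gene was *Mcm6* in both. For *Mcm10* the 3 differences between the sexes in the genotype effect were 0.06, 0.07 and -0.01, each with a 95% confidence interval within -0.37 to 0.43. For *Mcm6*, the difference of log2 fold changes, male minus female, was -0.55 for Pkd1KO against Pkd1KO+ciliaKO (standard error 0.14, edgeR adjusted p = 0.0962) and 0.62 for Pkd1KO+ciliaKO against noncystic (standard error 0.14, edgeR adjusted p = 0.0854). Without the 6 libraries named above the values were -0.68 (edgeR adjusted p = 0.0299) and 0.69 (edgeR adjusted p = 0.0524). The 6 male calls between Pkd1KO and noncystic mice are thus not shown to differ from the female values, and the 95% confidence interval of the sex difference for *Cdc6*, -0.11 to 1.35, is wide.

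The mice varied around their group means in a shared way for most of these genes. As deviations of log2(CPM + 0.1) from the group mean over the 45 mice, *Mcm5* had a Pearson r of 0.952 with the mean of the other 9 genes, *Mcm3* 0.936, *Mcm2* 0.861 and *Mcm4* 0.855. *Cdt1* had 0.834, *Cdc6* 0.807 and *Mcm7* 0.722. *Mcm6* (0.467), *Gmnn* (0.307) and *Mcm10* (0.26) followed least. Without Pkd1KO male replicate 4 these last 3 values were 0.37, 0.234 and 0.257, and that of *Mcm5* was 0.943. Hence *Mcm6*, which passed in 4 of the 6 genotype comparisons, and *Mcm3*, which passed in 1, did not vary together closely within groups (r = 0.45 between them), whereas *Mcm3* and *Mcm5* did (r = 0.923). All values share the same libraries, and they are given as descriptions.
The 8 genes nearest to the mean of the licensing genes, among 14385 compared, were *Pole* (r = 0.946), *Uhrf1* (0.9), *Lig1* (0.895), *Dtl* (0.875), *Hells* (0.868), *Ticrr* (0.867), *Chaf1a* (0.856) and *Atad2* (0.843). *Pole* encodes the catalytic subunit of the leading-strand polymerase, *Lig1* the ligase that joins Okazaki fragments, and *Uhrf1* and *Chaf1a* act in restoring DNA methylation and nucleosomes behind the fork. *Dtl* encodes the receptor that marks CDT1 for destruction in S phase, and *Ticrr* a factor that helps to fire licensed origins. The median r over all genes compared was -0.0229. Of the 8 genes, 7 were also among the nearest 8 without Pkd1KO male replicate 4, and 7 with log2(CPM + 1).

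**Figure D4:**
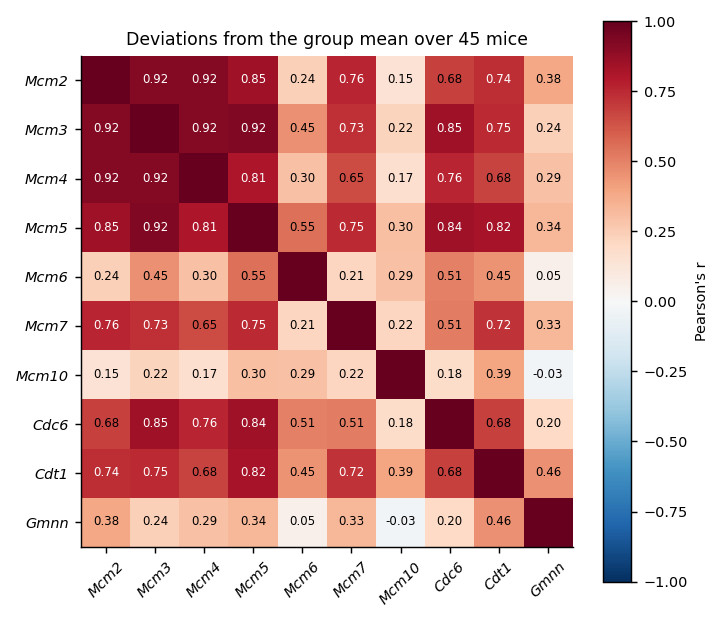
Pearson's r between each pair of the 10 genes over 45 mice, taken on deviations of log2(CPM + 0.1) from the mean of each group of genotype and sex. *Mcm2*, *Mcm3*, *Mcm4* and *Mcm5* form the darkest block, and *Mcm6*, *Mcm10* and *Gmnn* show the palest rows.

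The other genes of the pathway were followed in 4 lists. Of all genes, 4.05% were called higher in Pkd1KO than in noncystic males. Among 22 partners in origin recognition, loading and firing, 8 were higher there and none was lower, with a median log2 fold change of 0.31. The 4 with the smallest p were *Dbf4* (log2 fold change 0.68, edgeR adjusted p = 0.00186), the activating subunit of the CDC7 kinase that fires licensed origins, *Ticrr* (1.77, 0.00544), and *Gins2* (0.80, 0.00859) and *Gins1* (0.60, 0.0219), subunits of the complex that joins MCM in the active helicase. In the other 5 comparisons between genotypes 0 to 2 of the 22 were called, where 1.99% to 7.05% of all genes were called. Counts this low are not read as a result about the list. In females *Ticrr* was the 1 partner called between Pkd1KO and noncystic mice (log2 fold change 0.90, edgeR adjusted p = 0.0351). The share of all genes called higher there was 2.02%.
Between Pkd1KO and noncystic males, where 4.05% of all genes were called higher, the fork genes were next. Among 28 genes of the replication fork and nucleotide supply, 14 were higher in Pkd1KO, with a median of 0.41. They were led by *Rrm2* (1.49, edgeR adjusted p = 0.000783), *Prim1* (0.48, 0.00103), *Rrm1* (0.78, 0.00235) and *Tk1* (1.04, 0.00282). *Rrm1* and *Rrm2* encode ribonucleotide reductase, which makes deoxynucleotides, *Tk1* a thymidine kinase and *Prim1* a primase subunit. In females 3 of the 28 were called, against 2.02% of all genes called higher. These were *Rrm1* (0.59, edgeR adjusted p = 0.000705), *Prim2* (0.34, 0.0405) and *Rrm2* (0.58, 0.048). Against Pkd1KO+ciliaKO mice, 3 of the 28 were higher in Pkd1KO males (1.99% of all genes) and 5 in Pkd1KO females (7.05%). The medians were 0.29 and 0.22. Between Pkd1KO+ciliaKO and noncystic mice 3 of the 28 were higher in males (5.63% of all genes). In females 0 were called there (2.54% of all genes in either direction).
Of 12 genes that act in the turnover of CDT1 and geminin 11 were matched. Against 4.05% of all genes, 3 of the 11 were higher in Pkd1KO than in noncystic males. They were *Ccna2* (1.97, edgeR adjusted p = 0.000986), *Dtl* (1.63, 0.00129) and *Cdc20* (1.96, 0.00129). *Ccna2* encodes cyclin A2 and *Cdc20* an activator of the anaphase-promoting complex, which degrades geminin among other proteins. The same 3 genes were higher in Pkd1KO+ciliaKO than in noncystic males (log2 fold changes 1.05, 0.89 and 1.04), against 5.63% of all genes. None of the 11 was called in females.

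The fourth list held 17 genes of mitosis, which acts at the far end of the cycle. Between Pkd1KO and noncystic males all 17 mitosis genes were higher, against 4.05% of all genes. The median log2 fold change was 1.80 against 0.56 for the licensing genes. The list was led by *Cdk1* (1.93, edgeR adjusted p = 0.00081) and *Bub1* (2.04, 0.000848). Between Pkd1KO+ciliaKO and noncystic males, 16 of the 17 were higher with a median of 1.02, against 5.63% of all genes called higher. There 1 of the 10 licensing genes was called, with a median of 0.25. Between Pkd1KO and Pkd1KO+ciliaKO males none of the 17 was called, with a median of 0.82, where 1.99% of all genes were called higher. In females 2 of 17 were called between Pkd1KO and noncystic mice, *Kif11* (0.72, edgeR adjusted p = 0.0156) and *Mki67* (0.66, 0.0423). The share of all genes called higher there was 2.02%. In the other 2 female comparisons 0 of the 17 were called. The difference between the lists was not tested. Per mouse, the mean log2 level of the mitosis genes ranged from 0.64 to 1.94 in noncystic males, 2.13 to 4.05 in Pkd1KO males and 1.69 to 3.06 in Pkd1KO+ciliaKO males. The noncystic and Pkd1KO males therefore did not overlap on this axis. On the axis of the licensing genes they ranged from 3.01 to 3.64 and 3.72 to 4.6, and Pkd1KO+ciliaKO males from 3.4 to 3.93. Pkd1KO female replicate 6 had the highest licensing level among females, at 4.27, with a mitosis level of 2.30, inside the 1.2 to 2.33 of the other Pkd1KO females.

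**Figure D5:**
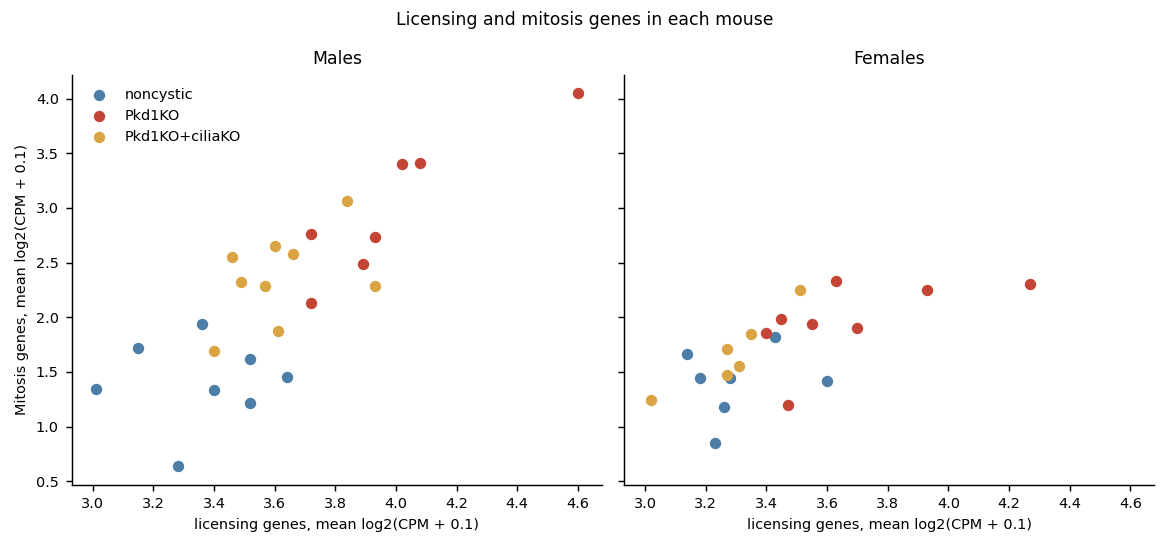
Mean log2(CPM + 0.1) of the 17 mitosis genes against that of the 10 licensing genes, with 1 point per mouse, males left and females right, coloured by genotype. Pkd1KO males lie at the upper right, from 3.72 to 4.6 on the licensing axis, noncystic males reach 3.64, and Pkd1KO+ciliaKO males, from 3.4 to 3.93, overlap both groups.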

How the data were processed

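The values deposited by the authors were read per gene and mouse. Per the labels and the study's methods, reads from a single sequencing batch were trimmed with fastp 0.20.0, aligned with STAR 2.7.9 to GRCm38.p6 and counted on GENCODE genes with featureCounts 2.0.0. The authors deposited unnormalized counts, and TPM values in separate tables for males and females.

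A protein-coding gene entered the tests of a sex if 20% or more of its mice had 6 counts or more. The tests used edgeR 4.0.16 (quasi-likelihood, TMM) in R 4.3.3, run separately for each pair of genotypes and sex, with Benjamini-Hochberg adjustment over all genes tested and a threshold of 0.05. Differences between sexes came from 1 fit of all 45 mice. CPM values used TMM over the 15828 genes tested in both sexes. TPM served for levels between genes, for shares and ratios of genes, for the first principal component and for an alternative test with limma 3.58.1. DESeq2 1.42.0, no low-count filter, all gene classes, 3 genotypes in 1 fit, a replicate block, and leaving out single mice or the libraries that stood apart were further alternatives. Each library came from 1 mouse, so errors cover differences between mice. None of the 149 pairs of libraries within a group agreed within sampling noise, and pairs across groups were not compared. Scripts were tested on simulated data. The 10 genes, the related lists and the libraries left out were chosen with earlier results of these data known. All licensing genes, at most 4 called genes per related list and comparison (those with the smallest p), and the 8 genes nearest in pattern were named.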

Additional observations from a re-analysis of the deposited data

Results flagged for a closer look

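Over the 60 combinations of 10 genes and 6 groups, 10 held 1 mouse whose distance from its nearest neighbour was large against the range of its group (Dixon's criterion), where chance flags about 1 in 20. Pkd1KO male replicate 4 accounted for 4, with 33.4 CPM of *Mcm3* against 10.3 to 19.8 in the other Pkd1KO males, 38.3 of *Mcm4* against 18.4 to 26.8, 33.7 of *Mcm5* against 13.4 to 22.1 and 5.89 of *Cdc6* against 1.45 to 2.56. Pkd1KO+ciliaKO male replicate 8 had 36.9 CPM of *Mcm2* (others 21.6 to 29.0) and 34.5 of *Mcm4* (others 14.9 to 23.4). Pkd1KO+ciliaKO male replicate 6 had 20.5 CPM of *Gmnn* (others 13.8 to 16.2). Pkd1KO female replicate 6 had 32.4 CPM of *Mcm7* (others 21.3 to 26.3) and 14.6 of *Cdt1* (others 5.7 to 8.63). Noncystic female replicate 4 had 17.0 CPM of *Mcm5* (others 9.24 to 11.3).

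For *Mcm6* the sexes gave values of opposite sign between Pkd1KO+ciliaKO and noncystic mice, 0.32 in males (edgeR adjusted p = 0.00857) and -0.31 in females (edgeR adjusted p = 0.0964), of which the female value did not pass. Every Pkd1KO+ciliaKO male was above the noncystic male mean of 36.8 CPM and every Pkd1KO+ciliaKO female below the noncystic female mean of 38.0. The difference of the log2 fold changes was 0.62, and the edgeR interaction test gave an adjusted p of 0.0854, which did not pass the threshold.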

How the results depend on the processing

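Between Pkd1KO and noncystic males the count of 6 became 8 with DESeq2, 7 with 3 genotypes in 1 fit and 3 with limma on log2(TPM + 1). The share of all genes called there was 6.3%, and 10.7%, 9.06% and 3.91% in these 3 alternatives. With 1 mouse left out, 6 to 8 licensing genes were called. Between Pkd1KO and Pkd1KO+ciliaKO males the count of 2 became 6 with DESeq2, 4 with 3 genotypes in 1 fit, 0 with limma, and 1 to 4 without 1 mouse. The share of all genes called there was 3.77%, and 7.72%, 5.81% and 3.55% in these 3 alternatives. Between Pkd1KO+ciliaKO and noncystic males the count of 1 became 4 with DESeq2, 2 without the 4 males that stood apart, and 1 to 3 without 1 mouse. The share of all genes called there was 8.89%, and 13.5% and 14% in the first 2 of these alternatives. In females the count of 1 between Pkd1KO and noncystic mice became 5 with DESeq2, 2 with 3 genotypes in 1 fit, 3 with limma and 1 to 3 without 1 mouse. The share of all genes was 3.34%, and 6.02%, 3.72% and 3.24% in the first 3 of these alternatives. The count of 2 against Pkd1KO+ciliaKO became 4 with DESeq2, 1 with limma, 1 without the 2 libraries against their labels, and 1 to 3 without 1 mouse. The share of all genes was 11.7%, and 16%, 13.6% and 10.4% in the first 3 of these alternatives. Between Pkd1KO+ciliaKO and noncystic females the count of licensing genes stayed 0 in every alternative. The sex count in noncystic mice became 2 without the low-count filter, and the interaction count for Pkd1KO against Pkd1KO+ciliaKO became 1 without the 6 libraries that stood apart. The cause was not tested.

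Mice that share a number share nothing else in the labels. The correlation of their deviations ran from -0.326 to 0.362, so the numbers do not pair the mice. With the replicate block the counts were 1 instead of 2 (Pkd1KO against Pkd1KO+ciliaKO, in either sex) and 0 instead of 1 (Pkd1KO+ciliaKO against noncystic males), and in the male comparison of Pkd1KO with Pkd1KO+ciliaKO 170 genes were called in all instead of 603. There *Cdt1* and *Mcm10* both lost the call (edgeR adjusted p = 0.0688 and 0.0953), and the 1 gene called was *Mcm7* (0.0473). In females *Mcm6* held it and *Mcm5* did not.

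Of 1560 single-gene values under an alternative, 1488 kept their side of the threshold, 47 gained and 25 lost a call. Genes called between genotypes kept their direction in every alternative. Some small values that were not called changed sign. For *Mcm2* between Pkd1KO+ciliaKO and noncystic females, the log2 fold change of -0.02 became at most 0.11. DESeq2 called more of all genes than edgeR in each comparison between genotypes. Its share was 10.7% against 6.3%, 7.72% against 3.77% and 13.5% against 8.89% in males, and 6.02% against 3.34%, 16% against 11.7% and 8.69% against 2.54% in females, in the order used above.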
